A study of Homo sapiens with 22 samples.

Results

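The proteasome subunit genes were taken as all protein-coding genes whose symbols begin with PSMA, PSMB, PSMC, PSMD or PSME followed by a number, without PSMB8 and PSMB9. The rule found 43 genes of the 19974 protein-coding genes of the annotation. Of these, 38 encode subunits or activators, 3 (PSMD5, PSMD9 and PSMD10) encode chaperones that help assemble the base of the regulatory particle, and 2 (PSMC3IP and PSME3IP1) carry the symbol of a protein partner and are not subunits.

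The proteasome is the protease that degrades ubiquitin-tagged proteins. Its 20S core is a barrel of alpha and beta rings, with the proteolytic sites on PSMB5, PSMB6 and PSMB7. The core is opened by the 19S regulatory particle, made of a base of PSMC ATPases and a lid, or by the PSME activators. Plasma cells secrete much antibody and depend on this protease, and PSMB5 is the main target of the proteasome inhibitors used against myeloma.

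Accessible chromatin was measured by ATAC-seq, in which the Tn5 transposase cuts and tags open DNA, in KMS11 (12 libraries) and KMS34 (10 libraries), both multiple myeloma cell lines from bone marrow. The study asked how inducing degradation of NSD2, a histone methyltransferase overexpressed through t(4;14), alters these lines. There were 11 groups of 2 libraries each: KMS11 and KMS34 untreated at day 0, each line in DMSO, the vehicle, at day 4 and at day 10, each line in NSD2LDD, the degrader, at day 4 and at day 10, and KMS11 labelled TKO at day 0. All but the TKO libraries carry the genotype label t(4;14), while those 2 carry the genotype TKO. The labels spell out neither TKO nor the NSD2LDD concentration. The members of a pair are numbered duplicates and nothing says that they were separate cultures, so every p-value rests on the spread among the libraries at hand, which may be technical.

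The lists held 24979 to 52518 called peaks, the shortest being replicate 2 of day 0 KMS11, and no read counts, so depth is unknown. Every library held called peaks at the gene ends of 8 to 10 of 10 plasma cell and myeloma markers, among them SDC1, IRF4, XBP1 and CD38. Of 4 B cell markers, 0 or 1 had such a peak in any library (MS4A1 at 0 throughout), as had 0 or 1 of 4 myeloid markers (CD14, CSF1R and LYZ at 0). Of 4 erythroid and 4 stromal and endothelial markers it was 0 or 1, and of 4 T and NK markers 1 or 2, with CD3D and NKG7 at 0. Covered length summed to 3832 to 9512 bp over the plasma cell list and to at most 594 bp (B cell), 1293 bp (T and NK), 252 bp (myeloid), 246 bp (erythroid) and 838 bp (stromal and endothelial) over the others. The libraries are bulk, so fewer cells with an open site and a less open site in each cell cannot be told apart.

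Promoters of RefSeq (GRCh38.p14, 250 bases before to 50 after the start) were matched by symbol for 38 of the 43 genes, and PSMA7, PSMB1, PSMB6, PSMB7 and PSMD4 had no entry. The 7 below belong to genes on which the results turn: PSMA5, PSMB5, PSMB11, PSMA8, PSMB4, PSMC5 and PSME1. PSMA5 had the highest start peak of the family by the rank of its deposited -log10 q. PSMB11 had no peak, and PSMA8 had a start peak in 1 line only. PSMB4, PSMC5 and PSME1 differed between lines in the gene body and 5 kb either side, not at the start alone. Capitals mark TGACNNNGC (the core of the antioxidant response element bound by NFE2L1 and NFE2L2, known regulators of proteasome genes), CCAAT (NF-Y) and CCGGAA (ETS factors), each searched on both strands.
PSMA5: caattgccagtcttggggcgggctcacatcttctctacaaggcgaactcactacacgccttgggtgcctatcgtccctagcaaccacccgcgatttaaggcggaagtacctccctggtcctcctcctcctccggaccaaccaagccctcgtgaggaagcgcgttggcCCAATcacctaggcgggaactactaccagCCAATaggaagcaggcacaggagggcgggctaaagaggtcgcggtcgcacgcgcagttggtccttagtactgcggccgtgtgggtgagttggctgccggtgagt
PSMB5: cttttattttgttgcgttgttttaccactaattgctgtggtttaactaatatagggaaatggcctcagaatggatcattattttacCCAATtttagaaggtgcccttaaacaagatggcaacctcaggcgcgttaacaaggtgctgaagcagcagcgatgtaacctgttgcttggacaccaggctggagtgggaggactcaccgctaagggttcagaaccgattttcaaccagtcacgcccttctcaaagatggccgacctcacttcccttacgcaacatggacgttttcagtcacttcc
PSMB11: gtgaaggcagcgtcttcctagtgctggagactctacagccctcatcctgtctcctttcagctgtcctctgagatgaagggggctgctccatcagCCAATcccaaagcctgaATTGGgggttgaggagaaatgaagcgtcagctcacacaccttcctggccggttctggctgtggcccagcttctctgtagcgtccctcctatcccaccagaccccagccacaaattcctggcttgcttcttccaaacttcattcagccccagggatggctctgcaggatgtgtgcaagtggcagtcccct
PSMA8: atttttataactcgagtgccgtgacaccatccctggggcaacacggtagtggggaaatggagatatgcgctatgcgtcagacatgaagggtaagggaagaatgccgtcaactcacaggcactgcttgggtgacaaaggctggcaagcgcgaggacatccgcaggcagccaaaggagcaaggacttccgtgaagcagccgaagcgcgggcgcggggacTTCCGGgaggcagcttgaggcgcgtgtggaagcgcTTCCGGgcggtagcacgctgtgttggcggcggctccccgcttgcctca
PSMB4: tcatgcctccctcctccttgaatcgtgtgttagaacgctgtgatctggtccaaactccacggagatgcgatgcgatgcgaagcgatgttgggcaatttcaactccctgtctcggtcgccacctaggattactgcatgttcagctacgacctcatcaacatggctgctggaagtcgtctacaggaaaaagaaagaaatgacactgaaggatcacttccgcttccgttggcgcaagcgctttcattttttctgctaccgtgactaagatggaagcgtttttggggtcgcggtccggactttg
PSMC5: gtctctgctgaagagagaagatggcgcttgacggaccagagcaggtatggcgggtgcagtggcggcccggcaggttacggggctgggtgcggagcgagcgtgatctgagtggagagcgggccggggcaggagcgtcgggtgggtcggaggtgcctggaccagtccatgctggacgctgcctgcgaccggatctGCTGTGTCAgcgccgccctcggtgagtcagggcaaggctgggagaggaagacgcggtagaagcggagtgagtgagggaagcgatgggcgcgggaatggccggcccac
PSME1: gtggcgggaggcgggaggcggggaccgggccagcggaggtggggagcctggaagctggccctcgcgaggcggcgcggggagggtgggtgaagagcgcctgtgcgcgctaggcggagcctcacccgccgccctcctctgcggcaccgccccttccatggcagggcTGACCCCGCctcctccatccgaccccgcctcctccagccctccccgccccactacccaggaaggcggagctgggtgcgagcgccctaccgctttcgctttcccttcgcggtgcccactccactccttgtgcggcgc
The PSMA5 promoter (chr1:109426399-109426698, minus strand) holds CCAAT at positions -83 and -54 from its start. That of PSMB5 (chr14:23035171-23035470, minus strand, the first of its 2 RefSeq starts) holds it at -164. The second PSMB5 start (position 23034900, not printed) holds CCGGAA at -83 and, on the other strand, at -85. This second start is the nearer to the median summit of the called region, at 116 bp. Library by library, the strongest summit lay a median of 35.5 bp from whichever of the 2 starts was nearer. The pooled summit thus does not tell which start is open. The PSMB11 promoter (chr14:23041962-23042261, plus strand) holds CCAAT at -156 and, on the other strand, at -139. PSMA8 (chr18:26133619-26133918, plus strand) holds CCGGAA on the other strand at -33 and 3. The second RefSeq start of PSMC5 (chr17:63827471-63827770, plus strand) and the start of PSME1 (chr14:24135944-24136243, plus strand) each hold TGACNNNGC, at -57 and at -86. The first PSMC5 start (position 63827431, not printed) holds CCGGAA at -41 and CCAAT at -10. It is the nearer to the median summit of the called region, at 39 bp. PSMB4 (chr1:151399323-151399622, plus strand) matches none of the 7 motifs searched.

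Across the family, TGACNNNGC was found in 12 of 38 promoters (31.6%), against 17.9% of the promoters of all 15812 genes with an entry and 20.1% of the 8324 genes with a start peak in every library. The 12 include PSMA4, PSMB3, PSMC4, PSMD1, PSMD3, PSMD12 and PSME4. CCGGAA was found in 22 promoters (57.9%), against 26.6% of all and 38.2% of those with a start peak in every library. CCAAT was in 20 (52.6%, against 42.1% and 45.4%). GGGCGG (SP and KLF factors) was in 25 (65.8%, against 64.2% and 80.5%). TGCGCATGC (the NRF1 transcription factor) was in PSMA2 and PSMA4, or 5.26% (against 2.43% of all and 3.94% of those with a start peak in every library). AAGATGGCG (YY1) was in PSMA2, PSMC5 and PSMD11, or 7.89% (against 3.21% and 5.33%). TGACGTCA (CRE) was in 0 of 38 (against 3.00% and 4.30%). These matches describe the letters and no factor was measured. Median GC content was 61.2% in the family, 62.7% over all promoters and 66.0% over those with a start peak in every library.

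Most of the family was open in every library. A called peak overlapped the windows of 1 kb either side of the gene ends in 22 of 22 libraries for 37 of 43 genes (86.0%), against 48.7% of all protein-coding genes. PSMA6 and PSMB11 had one in 0 libraries, a state of 31.3% of all genes, and 4 genes had one in some libraries, as had 20.0% of all genes. These were PSMA8 (12 libraries), PSMB6 (11), PSMD6 (21) and PSME3 (21). Each library held a gene-end peak at 38 to 41 of the 43. With every list shortened to the 24979 strongest peaks, 31 of 43 kept a gene-end peak in 22 libraries, against 42.3% of all genes. Within 1 kb of a RefSeq start, 34 of 38 had a peak in every library, against 52.6%, and in the body and 5 kb either side 39 of 43, against 60.2%.

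**Figure D1:**
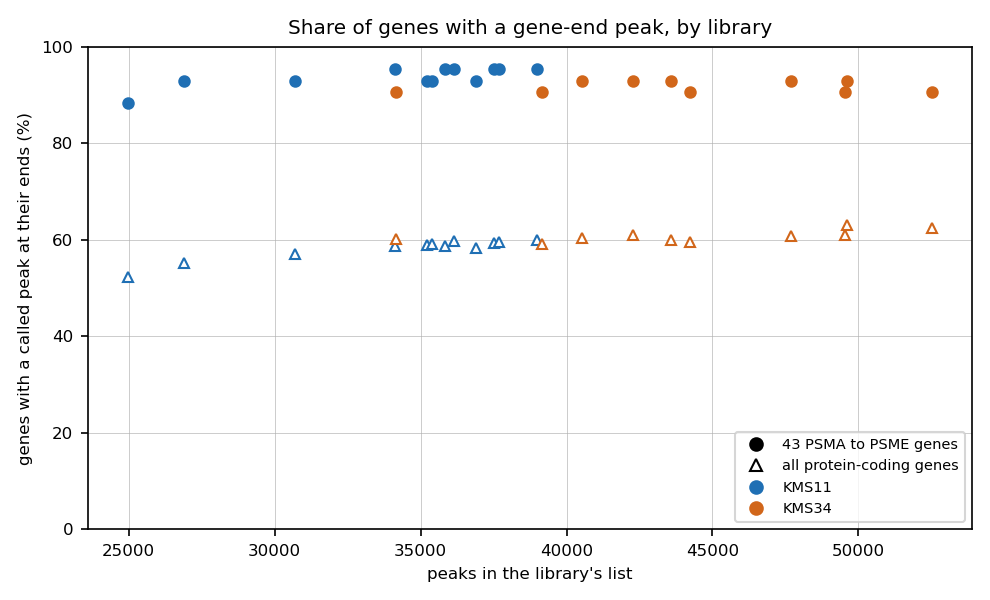
Share of genes with a called peak within 1 kb of their ends (%) against the number of peaks in each library's list, for the 43 genes (circles) and all protein-coding genes (triangles), by line. The family lies between 88.4% and 95.3% in every library, above all genes in each.

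**Figure D2:**
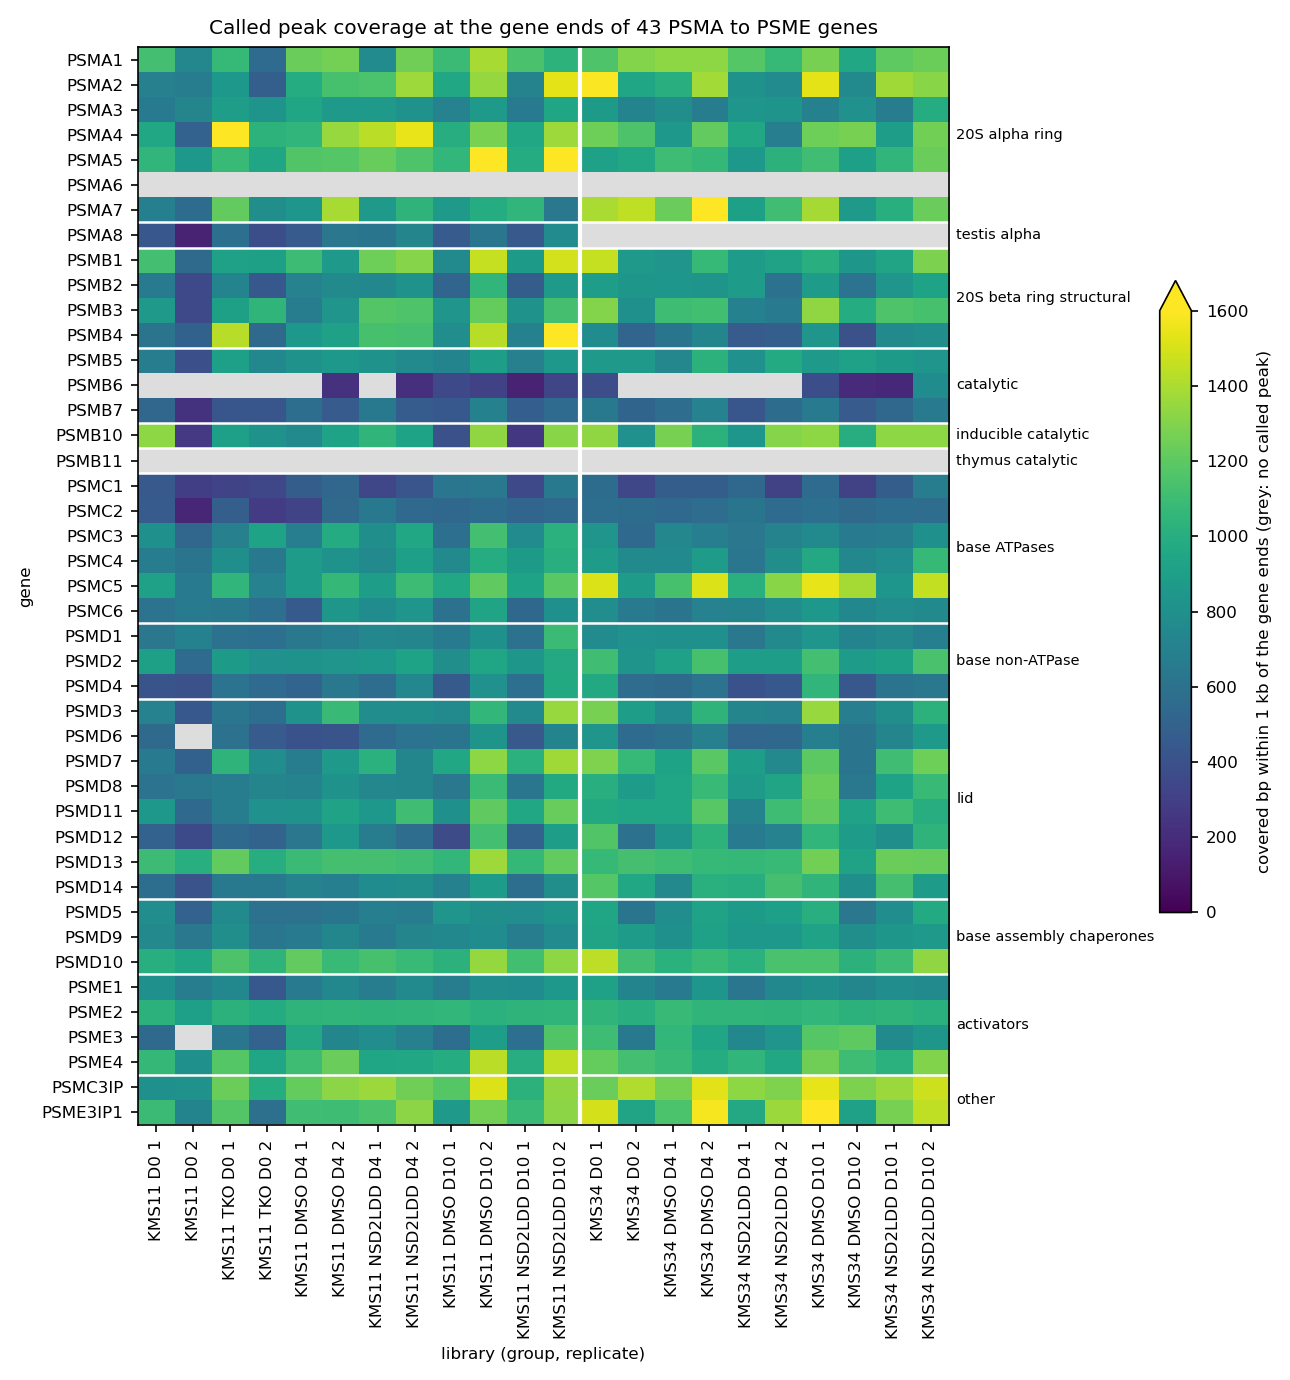
Covered bp of called peaks within 1 kb of the gene ends, for each of the 43 genes (rows, by role) in each of the 22 libraries (columns); grey marks no called peak. PSMA6 and PSMB11 are grey throughout, PSMA8 is grey in the 10 KMS34 libraries only, and PSMD6 and PSME3 are grey in replicate 2 of day 0 KMS11.

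Of the alpha ring, whose subunits gate the core, PSMA1, PSMA2, PSMA3, PSMA4, PSMA5 and PSMA7 had gene-end peaks in every library, with median covered lengths of 821.5 bp (PSMA3) to 1186 bp (PSMA4). PSMA6 (chr14:35278558-35317493) had none, and its RefSeq start lies inside its gene record, away from both ends. Its start region at chr14:35291671-35293034 was called in 22 libraries with peaks 484 to 1299 bp wide. PSMA1 (chr11:14504876-14643662) likewise starts inside its record, where a region at chr11:14519718-14521022 was called in 22 libraries. The PSMA1 gene-end peak was a different region, at chr11:14643270-14645282. Its median summit lay 95 bp beyond the record and 123371 bp from the start. The windows of PDE3B and COPB1 overlap that of PSMA1, so its gene-end coverage does not describe its start. PSMA7, an alpha subunit, covered 688 and 563 bp in day 0 KMS11 and 1398 and 1444 bp in day 0 KMS34. In DMSO it covered 841, 1389, 866 and 993 bp in KMS11 and 1233, 1779, 1385 and 857 bp in KMS34, so the lines overlapped there, and it was not called between lines (0.33 ± 0.14 at the ends, limma adjusted p = 0.103).

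PSMA8, the alpha subunit that takes the place of PSMA7 in testis proteasomes, had a start peak in 1 line only. The region at chr18:26133520-26134325, whose median summit lies 22 bp downstream of the start, was called in 12 of 12 KMS11 libraries and in 0 of 10 KMS34 libraries. Covered length at the gene ends was 436 and 161 bp in day 0 KMS11, 585 and 387 bp in TKO, 459 and 634 bp in DMSO at day 4, 623 and 728 bp in NSD2LDD at day 4, 459 and 628 bp in DMSO at day 10 and 445 and 771 bp in NSD2LDD at day 10. The lines did not overlap. A gene-end peak in all 12 KMS11 and 0 KMS34 libraries was found at 1 of the 43 genes and at 0.591% of all genes, and the opposite pattern at 0 of 43 and 1.22%. Within the PSMA8 gene, regions at chr18:26181193-26182131 and chr18:26190172-26190905 were called in 22 libraries, so the body was open in both lines.

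The structural beta subunits PSMB1, PSMB2, PSMB3 and PSMB4 had gene-end peaks in every library, with medians of 771.5 bp (PSMB4) to 1018 bp (PSMB3). The PSMB1 region called in 22 libraries had its median summit 934 bp beyond a gene end. The nearest TBP end lay 1062 bp from PSMB1, so that region cannot be assigned to either gene. Of the catalytic subunits, PSMB5, with chymotrypsin-like activity, covered 390 to 1031 bp (median 843). Its lowest values were in day 0 KMS11, at 680 and 390 bp, against 866 and 858 bp in day 0 KMS34. PSMB7, with trypsin-like activity, covered 236 to 712 bp (median 529).

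PSMB6, with caspase-like activity, had the weakest start region of those called. Covered length was 0 bp in both libraries of day 0 KMS11 and TKO, 0 and 226 bp in KMS11 DMSO at day 4, 0 and 220 bp in NSD2LDD at day 4, 352 and 314 bp in DMSO at day 10 and 158 and 336 bp in NSD2LDD at day 10. In KMS34 it was 379 and 0 bp at day 0, 0 bp in the 4 libraries of day 4, 382 and 196 bp in DMSO at day 10 and 186 and 778 bp in NSD2LDD at day 10. All 8 day 10 libraries and 3 others held a peak, so the groups overlapped, and on lists of equal length 0 libraries held one.

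PSMB10, the inducible trypsin-like subunit of the immunoproteasome, covered 259 to 1334 bp (median 1012.5). Day 0 KMS11 gave 1326 and 265 bp, nearly the whole range within a pair. Its strongest peak lay 1012 bp downstream of the start, inside the gene. PSMB11, the catalytic subunit of cortical thymus cells (chr14:23042212-23044060), had no called peak in the body or 5 kb either side in any library.

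The base ATPases PSMC1 to PSMC6, which unfold substrates, had gene-end peaks in every library, with medians of 469 bp (PSMC1) to 1061 bp (PSMC5). Of the base subunits without ATPase activity, PSMD4, a ubiquitin receptor, covered 398 to 1052 bp (median 580.5), and PSMD1 and PSMD2 had medians of 723 and 892 bp. Of the lid, PSMD14, the deubiquitinase that removes the ubiquitin chain, covered 411 to 1177 bp (median 791.5). PSMD6 lacked a peak in replicate 2 of day 0 KMS11, the shortest list, and covered 400 to 858 bp elsewhere. The other lid genes ranged in median from 692.5 bp (PSMD12) to 1099.5 bp (PSMD13).

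The chaperone genes PSMD5, PSMD9 and PSMD10 had medians of 783, 785 and 1103 bp. The activators PSME1 and PSME2, which form the interferon-inducible PA28 cap, covered 440 to 918 bp and 903 to 1079 bp. PSME3, the nuclear PA28 subunit, lacked a peak in replicate 2 of day 0 KMS11 and covered 502 to 1200 bp elsewhere. PSME4, which encodes PA200, covered 802 to 1449 bp. PSMC3IP and PSME3IP1, which are no subunits, had medians of 1287.5 and 1145.5 bp.

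Several of these windows hold the end of a second gene, and peaks there cannot be assigned to either. Distances were taken from the member's RefSeq start, or from its gene ends where it had no entry. On this measure the nearest end lay 45 bp away for PSMD13 (SIRT3), 58 bp for PSMC5 (FTSJ3) and 36 bp for PSME3IP1 (RSPRY1). It lay 101 bp away for PSMC2 (PMPCB), 120 bp for PSME4 (ACYP2), 158 bp for PSMB7 (NEK6) and 179 bp for PSMD9 (HPD). For PSMA2 (MRPL32) it was 202 bp, for PSME2 (RNF31) 265 bp and for PSMA7 (SS18L1) 375 bp. Ends close to a member's other end were not listed, so the list is incomplete. The EMC9 end lay 2771 bp from the start of PSME1, a gene 2769 bp long. The strongest PSME2 peak lay 713 bp upstream of its start, on the RNF31 side.

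Where the start was called in every library, the peaks of the family were much like those of other genes. Median width was 831.75 bp in 34 members and 915.5 bp in all 8324 genes with a start peak in 22 libraries. The median of the strongest peak's rank by the deposited -log10 q within its own list was the 82.4th percentile against the 83.2nd, and by the deposited fold enrichment the 75.4th against the 75.6th. The summit lay a median of 76.25 bp from the start, against 92.5 bp. Within the family the rank ran from the 39.5th percentile at PSMC1 to the 99.7th at PSMA5, with PSMC4 (99.1), PSMD10 (97.0), PSMD2 (96.5) and PSMD8 (96.1) next. PSMB5 stood low, at 52.3, with PSMC2 at 55.8. PSMB6, where called, stood at 17.8.

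Merged over libraries, 104 called regions lay in the bodies and 5 kb either side, of which 50 (48.1%) were called in all 22 libraries, against 14.4% of all 96160 regions. Regions called in all KMS11 and 0 KMS34 libraries were 2 of 104 (1.92%), against 1.76% of all regions, and 0 of 104 were called in all KMS34 and 0 KMS11 libraries, against 2.52%. The 2 were the PSMA8 start and the 3′ part of PSMA4 (chr15:78550183-78552216, inside the gene). Others close to this pattern, chosen after their values were seen, were chr1:151404757-151405472, downstream of PSMB4 (11 KMS11 and 0 KMS34 libraries), chr7:42913693-42914216, downstream of PSMA2 (10 and 0), and chr17:4800685-4801143, downstream of PSMB6 (8 and 0). In the other direction were chr14:35285405-35286145, upstream of the PSMA6 start (2 KMS11 and 10 KMS34), and chr2:161412340-161412714, downstream of PSMD14 (0 and 8).

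**Figure D3:**
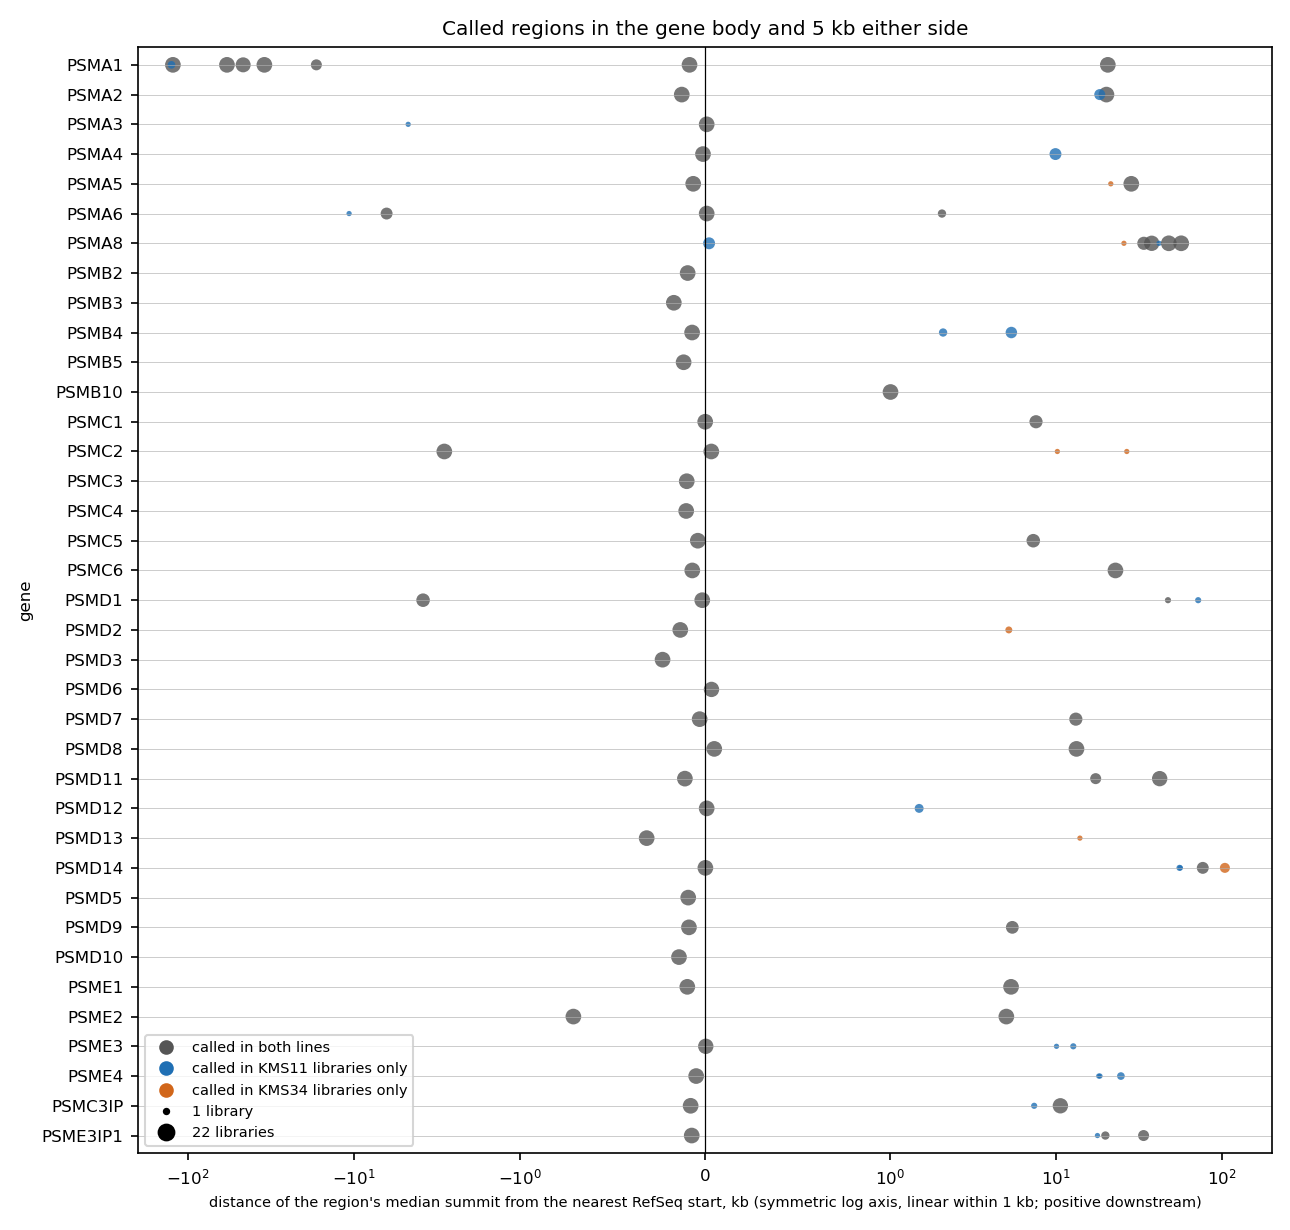
Called regions in the body and 5 kb either side of the 38 genes with a RefSeq start, by the distance of the median summit from the nearest start (kb, symmetric log axis). Point area grows with the number of libraries. PSMB11 has no point, every other gene has a region over its start, and that of PSMA8 is the one start region called in KMS11 only.

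NSD2LDD was set against DMSO to see whether degradation changed openness at the family. None of the tested members passed in either line. Covered lengths were compared as log2(covered bp + 200), less the library's median, in limma with Benjamini-Hochberg adjustment over all genes. Of the 43 genes, 42 were covered in at least 2 libraries in the body and 5 kb (not PSMB11) and 41 at the gene ends (not PSMA6 or PSMB11). In the body and 5 kb, 0 of 42 members were called in KMS11, against 0% of 16738 genes, 0 of 42 in KMS34 (0%), and 0 of 42 for the difference between the lines (0%). At an unadjusted p under 0.05 these counts were 1, 2 and 2 members, and 586, 1044 and 556 genes. At the gene ends 0 of 41 members were called in KMS11 (0% of 13268 genes), 0 of 41 in KMS34 (0.00754%, 1 gene) and 0 of 41 for the difference (0%), with 0, 0 and 1 members at an unadjusted p under 0.05 (372, 622 and 373 genes). The median log2 difference of the family in the body and 5 kb was 0.04 in KMS11 and -0.01 in KMS34 (all genes -0.01 and -0.0039), with a median standard error of 0.14. Differences of that size or less were not detectable with these libraries. Larger ones, up to 0.54 at PSMD14 in KMS11, did not pass either.

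In the body and 5 kb PSMD14 had the smallest p of the family in both lines. In its body and 5 kb, KMS11 covered 716, 1008, 702 and 881 bp in DMSO and 1550, 1278, 1184 and 1205 bp in NSD2LDD, without overlap. KMS34 covered 751, 1017, 1045 and 799 bp in DMSO and 1371, 1418, 1594 and 881 bp in NSD2LDD, where 1 NSD2LDD library lay among the DMSO libraries. Untreated at day 0, KMS34 covered 1177 and 1221 bp, above every KMS34 DMSO library, and KMS11 covered 875 and 411 bp. The log2 difference was 0.54 ± 0.17 (SE) in KMS11 (limma adjusted p = 0.85) and 0.46 ± 0.17 in KMS34 (adjusted p = 0.667), n = 4 against 4, and neither passed. By day it was 0.59 and 0.49 in KMS11 at days 4 and 10, and 0.65 and 0.27 in KMS34 (SE 0.24 each). A region inside the gene, at chr2:161384819-161385298, held a peak in 1 of the 4 KMS11 libraries in DMSO and in all 4 in NSD2LDD, and in 0 and 3 of 4 KMS34 libraries. It was likewise called in 1 of 2 day 0 libraries of each line and in 2 of 2 TKO libraries. This region was singled out after its values were seen. At the PSMD14 gene ends the differences were -0.02 ± 0.09 in KMS11 and 0.20 ± 0.09 in KMS34. The members with the smallest p there were PSMB3, PSMC1 and PSMB1 in KMS11, and PSMD14, PSMB3 and PSMC5 in KMS34. PSMB1 covered 1095, 868, 761 and 1457 bp at its ends in KMS11 DMSO and 1246, 1309, 874 and 1488 bp in NSD2LDD (0.22 ± 0.14), and PSMC5 1133, 1515, 1539 and 1386 bp in KMS34 DMSO and 1013, 1316, 841 and 1450 bp in NSD2LDD (-0.22 ± 0.12). Both overlapped between groups.

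The other members with the smallest p in the body and 5 kb were PSMC1 and PSMB3 in KMS11 and PSMA6 and PSMB3 in KMS34. PSMC1, a base ATPase, covered 474, 527, 630 and 643 bp in KMS11 DMSO and 803, 801, 660 and 964 bp in NSD2LDD, without overlap (0.37 ± 0.18), but at its gene ends the difference was -0.27 ± 0.15. PSMA6 covered 1287, 1551, 1544 and 900 bp in KMS34 DMSO and 1523, 1542, 1690 and 1731 bp in NSD2LDD, with overlap (0.30 ± 0.13, adjusted p = 0.766). PSMB3, a structural subunit, covered 671, 837, 832 and 1220 bp in KMS11 DMSO and 1172, 1157, 820 and 1129 bp in NSD2LDD, and 1105, 1115, 1336 and 988 bp in KMS34 DMSO and 703, 659, 1162 and 1136 bp in NSD2LDD. Its effects pointed in opposite directions, and the test of the difference between lines gave -0.48 ± 0.19 in the body and 5 kb (adjusted p = 1.00) and -0.49 ± 0.17 at the gene ends (adjusted p = 1.00), n = 4 against 4 in each line. The groups overlapped in both lines. The direction turned with the window, the KMS11 effect being -0.26 in the body alone and -0.079 within 500 bp of the ends, and the difference between lines 0.16 and 0.022. PSME3 covered 1061, 947, 1175 and 1200 bp in KMS34 DMSO and 746, 832, 758 and 845 bp in NSD2LDD, without overlap (-0.36 ± 0.24, not called). Beside PSMB3, the members with the smallest p for the difference between lines were PSMC5 (-0.39 ± 0.17) and PSME3 (-0.57 ± 0.33) in the body and 5 kb, and PSMC1 (0.39 ± 0.21) and PSMD4 (-0.38 ± 0.20) at the ends, none of them called. For PSMB5 the body and 5 kb difference was -0.07 ± 0.12 in KMS11 and 0.01 ± 0.12 in KMS34. PSMB10 gave 0.01 ± 0.22 and 0.06 ± 0.22.

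TKO was set against day 0 KMS11, with 2 libraries each. None of the tested members was called, with 0 of 42 in the body and 5 kb, against 4.69% of genes, and 0 of 41 at the gene ends, against 2.75%. At an unadjusted p under 0.05 there were 5 and 7 members, and 2691 and 1879 genes. PSMA4 had the smallest p at the gene ends, covering 1970 and 1035 bp in TKO and 962 and 500 bp at day 0. The groups did not overlap, and the difference was 0.72 ± 0.20 (limma adjusted p = 0.0759). With 2 libraries against 2, the groups did not overlap at 13 of 41 members at the ends and 10 of 42 in the body and 5 kb. The share over all genes was not counted, so these counts are not read as a result about the family. PSMC3IP, a recombination factor that is no subunit, covered 1983 and 1397 bp in its body and 5 kb in TKO and 999 and 997 bp at day 0 (0.50 ± 0.17, adjusted p = 0.125). PSME1 covered 746 and 440 bp at its ends in TKO and 804 and 673 bp at day 0 (-0.41 ± 0.14, adjusted p = 0.153), with overlap. PSMD11, a lid subunit, covered 1830 and 1424 bp in the body and 5 kb in TKO and 1463 and 545 bp at day 0 (0.56 ± 0.22, adjusted p = 0.19). PSMB3 covered 911 and 1048 bp there and 859 and 355 bp (0.47 ± 0.19, adjusted p = 0.193). Replicate 2 of day 0 KMS11 is the shortest list, and its part in these values was not tested beyond leaving it out. Without it 1 member was called in the body and 5 kb (PSMC3IP) and 0 at the ends. Without day 0 replicate 1 the counts were 3 (PSMD6, PSMD11 and PSME3) and 4 (PSMA4, PSMB3, PSMD6 and PSME3), all on a lone day 0 library assumed to vary like the other groups. Without TKO replicate 2, PSMA4 was called at the ends.

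KMS34 and KMS11 were compared over day 0 and DMSO, 6 libraries each. This was the comparison in which members of the family differed. In the body and 5 kb, 10 of 42 members were called (23.8%), against 35.6% of all genes, 6 lower and 4 higher in KMS34. At the gene ends 5 of 41 were called (12.2%), against 21.1%, 4 lower and 1 higher. One of the 4 lower is PSMA8, which entered that test through its KMS11 libraries alone. The family's median difference was 0.02 in the body and 5 kb and 0.03 at the ends (all genes 0.03 and -0.0011). Each line is 1 source, so the line and anything else that set its libraries apart cannot be told apart.

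At its gene ends PSMA8 covered 161 to 634 bp in KMS11 (median 459) and is listed at 0 bp in every KMS34 library. Its fitted difference there depends on the 200 bp added and is not given. In its body and 5 kb the lines overlapped, at 1005 to 2897 bp (median 2116) in KMS11 and 899 to 1913 bp (median 1391) in KMS34, a difference of -0.63 ± 0.12 (adjusted p = 0.000811).

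PSMB4 covered 498 to 1918 bp (median 1093) in the body and 5 kb in KMS11 and 398 to 836 bp (median 678.5) in KMS34. The KMS11 values reached higher but overlapped those of KMS34 at replicate 2 of day 0. The difference was -0.88 ± 0.15 (adjusted p = 0.000208), and -0.47 ± 0.15 at the ends (adjusted p = 0.033). PSMA4 covered 1214 to 2274 bp (median 1706.5) in KMS11 and 853 to 1392 bp (median 1232.5) in KMS34, a difference of -0.68 ± 0.13 (adjusted p = 0.00082). In both genes the regions called in KMS11 only lie away from the start region, which was called in 22 libraries. Within 1 kb of its start PSMB4 covered 498 to 952 bp in KMS11 and 398 to 836 bp in KMS34, with overlap. The PSMB4 window overlaps that of POGZ, whose nearest end lies 3151 bp from the start of PSMB4, a gene 2365 bp long. Coverage that the windows share cannot be assigned to either gene.

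PSMA5 was called in both windows. At its ends it covered 855 to 1651 bp (median 1114) in KMS11 and 902 to 1110 bp (median 1009.5) in KMS34, all KMS34 values lying within the KMS11 range, with a difference of -0.35 ± 0.08 (adjusted p = 0.00567). PSME1 (-0.22 ± 0.07) and PSME4 (-0.31 ± 0.10) were lower in KMS34 in the body and 5 kb, and PSMD13 (-0.23 ± 0.07) at the ends, by limma at adjusted p = 0.0228, 0.0285 and 0.0261. PSME4 covered 991 to 1250 bp in KMS34 and 802 to 1555 bp in KMS11, and PSMD13 921 to 1257 bp and 1011 to 1364 bp. All 3 overlapped between lines. PSME1's medians were 1592 bp in KMS34 and 1575.5 bp in KMS11, so its call is relative to the scaling of the libraries. Its window, with a median of 1574 bp over all libraries, held a region at chr14:24140824-24141984 (median width 856.5 bp). That region lies 2610 bp beyond the gene and also in the PSME2 window. PSME1 was not called at its ends, and in the gene body alone its difference was 0.031.

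Higher in KMS34 in the body and 5 kb were PSMC5 (0.48 ± 0.10, adjusted p = 0.00148), PSMA6 (0.45 ± 0.11, adjusted p = 0.0045), PSMB7 (0.47 ± 0.15, adjusted p = 0.0211) and PSME3 (0.53 ± 0.19, adjusted p = 0.0442). PSMC5 covered 664 to 1231 bp (median 1018.5) in KMS11 and 1201 to 2272 bp (median 1738.5) in KMS34, where 1 KMS34 library lay within the KMS11 range. PSMA6 covered 484 to 1073 bp (median 787) and 900 to 1833 bp (median 1438). PSMB7 covered 236 to 970 bp (median 582) and 734 to 1312 bp (median 1023), and PSME3 0 to 964 bp (median 656) and 644 to 1200 bp (median 1082), its 0 being replicate 2 of day 0 KMS11. PSMD14 was higher in KMS34 at its ends (0.24 ± 0.08, adjusted p = 0.0355), at 751 to 1177 bp (median 983.5) against 411 to 881 bp (median 697.5). This call was lost in 7 of 15 alternatives, among them the replicate number as a block (adjusted p = 0.0552) and lists of equal length (0.763), and in 9 of 12 fits with 1 library left out. The 7 include calls in place of covered bp, which could not differ at PSMD14, as its ends held a peak in all 22 libraries. The PSMD14 end windows include the region downstream of the gene that was called in 8 KMS34 and 0 KMS11 libraries. Within 1 kb of its start PSMD14 covered 644 to 879 bp in KMS34 and 411 to 881 bp in KMS11, with overlap. PSMD9, a chaperone singled out after its values were seen, covered 790 to 937 bp at its ends in KMS34 and 641 to 780 bp in KMS11, without overlap, but the scaled difference was 0.03 ± 0.07 and was not called. PSMB5 gave 0.02 ± 0.10 in the body and 5 kb and was not called.

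The NSD2LDD libraries, which that comparison did not use, gave 7 called members of 42 in the body and 5 kb (16.7%, against 27.6% of all genes), 5 lower and 2 higher in KMS34. At the ends they gave 4 of 41 (9.76%, against 13.3%), 3 lower (PSMA4, PSMB4 and PSMA8) and 1 higher. PSMA4 covered 1483 to 2671 bp in KMS11 and 682 to 1389 bp in KMS34 in the body and 5 kb, PSMB4 1034 to 2308 bp and 461 to 790 bp, and PSMA8 2139 to 3295 bp and 1348 to 2096 bp. None of these 3 overlapped between lines, and their differences were -1.13 ± 0.16, -1.22 ± 0.18 and -0.70 ± 0.15 (n = 4 against 4). At the ends PSMA8 covered 445 to 771 bp in KMS11 and is listed at 0 bp in KMS34, so it again entered that test through KMS11 alone. The other 2 lower in the body and 5 kb were PSMA2 (-0.47 ± 0.11, limma adjusted p = 0.00506) and PSMD1 (-0.45 ± 0.14, adjusted p = 0.0266). PSMA2 covered 1756 to 2955 bp in KMS11 and 1325 to 2003 bp in KMS34, and PSMD1 989 to 1736 bp and 639 to 1094 bp, both with overlap. Neither was called over day 0 and DMSO.

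Higher in KMS34 there were PSMA6 (0.45 ± 0.13, adjusted p = 0.0196) and PSMD9 (0.50 ± 0.14, adjusted p = 0.0127). PSMA6 covered 788 to 1559 bp in KMS11 and 1523 to 1731 bp in KMS34, with overlap, and PSMD9 726 to 883 bp and 1115 to 1631 bp, without. PSMD14 was again higher at its ends, at 881 to 1126 bp in KMS34 and 580 to 795 bp in KMS11 (0.34 ± 0.09, adjusted p = 0.0199). Within 1 kb of its start it covered 750 to 881 bp in KMS34 and 580 to 795 bp in KMS11, with overlap. So 4 of the 10 members called over day 0 and DMSO in the body and 5 kb were called here too, namely PSMA4, PSMA6, PSMA8 and PSMB4. The other 6 were not called, at -0.29 ± 0.11 (PSMA5), 0.16 ± 0.18 (PSMB7), 0.21 ± 0.12 (PSMC5), -0.17 ± 0.09 (PSME1), -0.27 ± 0.24 (PSME3) and -0.29 ± 0.13 (PSME4), of which PSME3 had the opposite sign. At the ends PSMA5 (-0.29 ± 0.10) and PSMD13 (-0.03 ± 0.08) were not called. How many of all genes were called in both sets of libraries was not counted, so these counts are not read as agreement.

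The line counts depended on scaling and on single libraries. KMS34 lists were longer, with a median of 43898 peaks against 35606.5 in KMS11, and without scaling the median of all genes moved to 0.25 in the body and 5 kb and 0.19 at the ends. Unscaled, 5 members were called in the body and 5 kb, all higher in KMS34, and 5 at the ends, 1 lower (PSMA8) and 4 higher. Without replicate 2 of day 0 KMS11, 6 and 2 members were called, the 2 being PSMA5 and PSMA8, and without replicate 1, 14 and 10. Of 12 fits with 1 library left out, the call was lost in 8 for PSMB4 and 6 for PSMD13 at the ends, and in 7 for PSME3, 6 for PSME4, 5 for PSME1 and 4 for PSMB7 in the body and 5 kb. It was lost in 0 of 12 for PSMB4, PSMA8, PSMA4, PSMC5, PSMA6 and PSMA5 in the body and 5 kb.

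**Figure D4:**
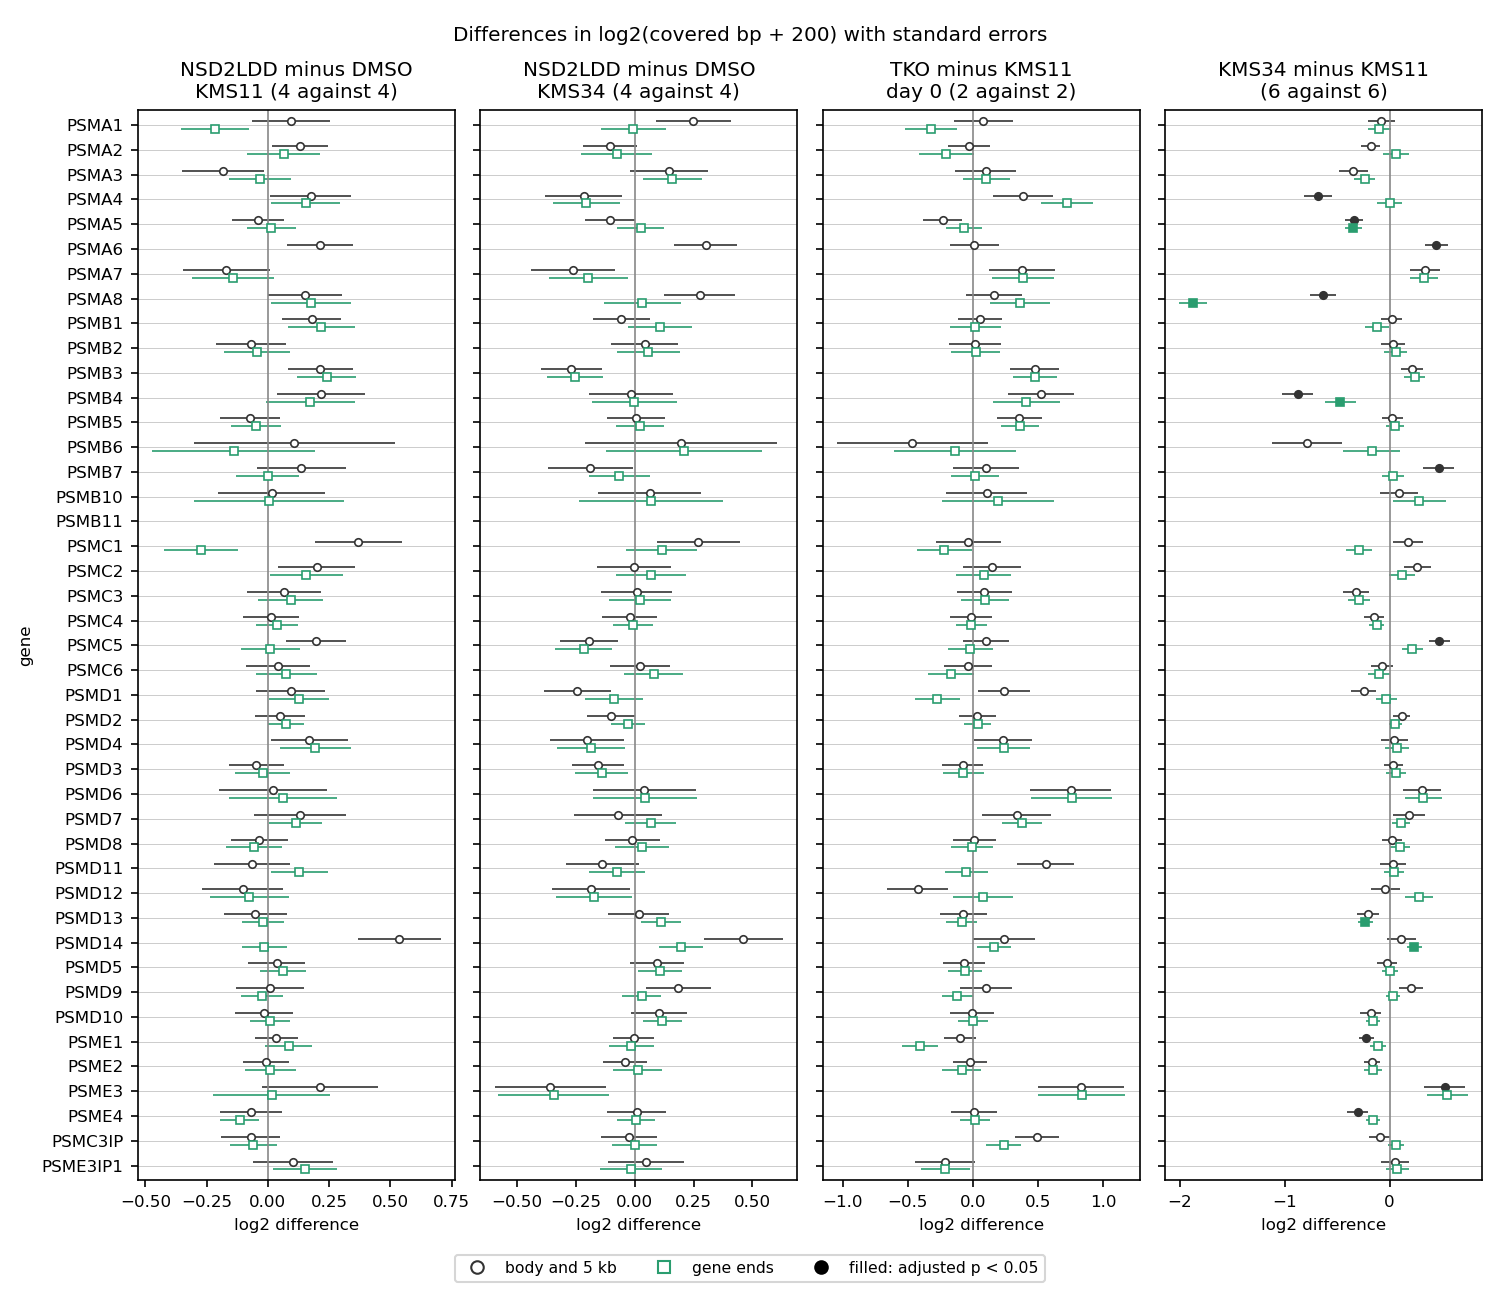
Log2 difference with its standard error for each member in 4 comparisons (panels, each with its own scale), in the body and 5 kb (circles) and at the gene ends (squares); filled points passed at an adjusted p under 0.05. Filled points appear only in the comparison of lines, 10 in the body and 5 kb and 5 at the gene ends.

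**Figure D5:**
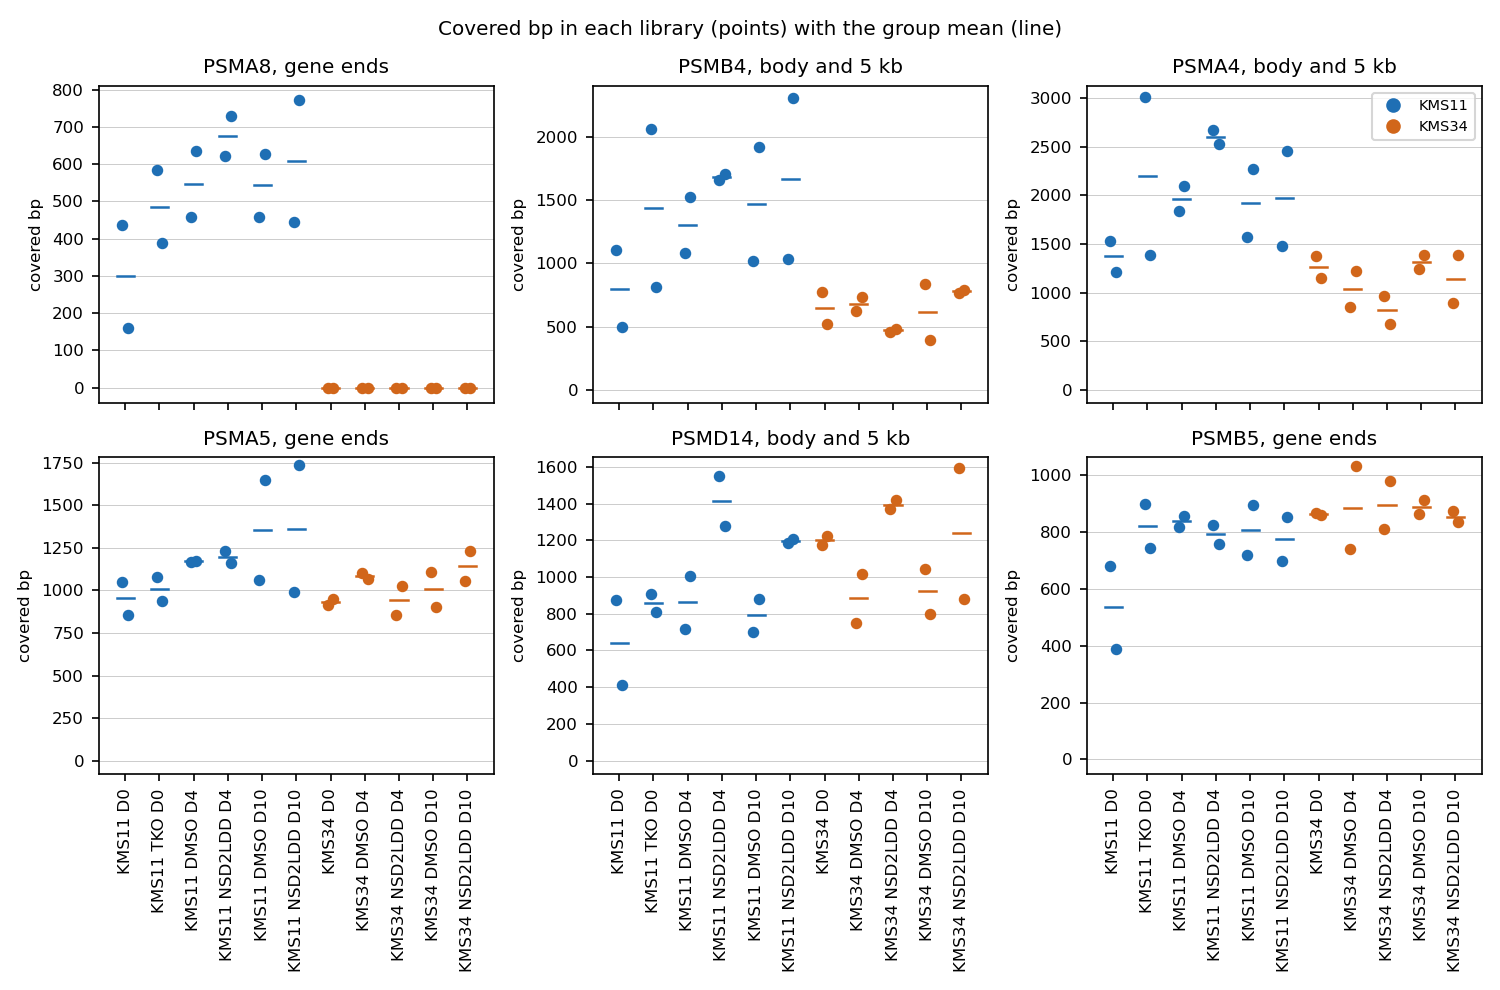
Covered bp of 6 members in each library (points) with the mean of each group of 2 (line), KMS11 blue and KMS34 orange. PSMA8 is at 0 in all KMS34 libraries, PSMB4 and PSMA4 reach higher in KMS11, PSMD14 lies above every DMSO library of its line in all NSD2LDD libraries but 1 of KMS34, and PSMB5 is lowest in day 0 KMS11.

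A related list of 37 genes held other proteasome and ubiquitin genes: assembly chaperones, ubiquitin enzymes and shuttles, regulators such as NFE2L1, and PSMB8 and PSMB9. A gene-end peak in 22 libraries was found at 30 of 37 (81.1%), against 48.7% of all genes. By the limma test NSD2LDD changed 0 of them in either line or measure (1 and 0 of 37 in the body and 5 kb, and 1 and 2 of 35 at the ends, at an unadjusted p under 0.05). TKO was higher at 2 of 37 in the body and 5 kb (5.41%, near the 4.69% of all genes called) and at 0 of 35 at the ends (2.75% of all genes). These were NPLOC4, a cofactor of the VCP segregase, at 0.98 ± 0.23 (adjusted p = 0.0199), and PSMG4, an assembly chaperone, at 0.61 ± 0.16 (adjusted p = 0.0306). Both were covered more in both TKO libraries than in either day 0 library. The 2 groups were also apart, in either direction, at 10 of 42 family members in that window, without a share over all genes to set beside it. KMS34 differed from KMS11 at 10 of 37 in the body and 5 kb (27.0%, against 35.6% of all genes), 8 lower and 2 higher, and at 6 of 35 at the ends (17.1%, against 21.1%), 4 lower and 2 higher. The ubiquitin ligase gene UBE3A was among those higher in KMS34 in the body and 5 kb (1.31 ± 0.24), and NPLOC4 among those lower (-0.61 ± 0.13). NFE2L1, the transcription factor that induces proteasome genes when the protease is inhibited, was lower in KMS34 (-0.26 ± 0.09, adjusted p = 0.0271).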

How the data were processed

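Called ATAC-seq peaks of 22 libraries, deposited as 1 list per library, were used. Per the submitters' processing notes the authors used fastp, BWA, SAMtools, Picard, MACS3 and deepTools with hg38, while versions and settings were not stated in the notes seen. Each deposited peak carries a score, a fold enrichment (a ratio to the modelled background), the -log10 p-value and -log10 q-value of the peak, and the offset of its summit. No read counts are held, so a missing peak may be closed chromatin or too few reads, which cannot be told apart, and wider or narrower calls move with depth.

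Gene coordinates were those of RefSeq GRCh38.p14, the build of the files. Covered bp were the merged called peaks inside the gene body with 5 kb either side, or within 1 kb of either gene end. They were tested as log2(covered bp + 200), less the library's median over genes covered in all libraries, in limma 3.58.1 (R 4.3.3, trend and robust) with 11 group means, over genes covered in at least 2 libraries, with Benjamini-Hochberg adjustment at 0.05. NSD2LDD was compared over days 4 and 10 together. A fold change of low genes is understated on this scale. The code was tested on simulated data. Other steps used Python 3.11.15, pandas 2.3.3, numpy 2.4.6, bedtools 2.31.1 and matplotlib 3.10.9. Members and lists were chosen with earlier results of these data known. Values are given for members that passed a test, the 3 with the smallest p in each comparison and measure, members with a gene-end peak in fewer than 22 libraries, and the catalytic, activator and a few other subunits fixed by name. Where named genes fell outside this rule, the text says so. Alternatives were stricter peaks, lists of equal length, other scalings, amounts added, filters, windows and models, the replicate number as a block, and leaving out each library. A few genes of the marker and related lists are not reported here by name.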

Additional observations from a re-analysis of the deposited data

How the results depend on the processing

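NSD2LDD and the difference of its effect between lines gave 0 called members under every alternative, and members with a gene-end peak in all libraries numbered 31 to 37 (37 to 39 with 1 library left out). For TKO in the body and 5 kb, 50 kb either side gave 2, lists of equal length 1, peaks with -log10 q of 5 or more 1, and leaving out 1 library 0 to 3. At the gene ends, lists of equal length gave 1 and leaving out 1 library 0 to 4. For KMS34 against KMS11 in the body and 5 kb, where 10 were called, 50 kb either side gave 16, calls in place of covered bp 0, the gene body alone 3, the log2 number of peaks as covariate 4, no scaling 5, and leaving out 1 library 6 (day 0 KMS11 replicate 2) to 14 (replicate 1). At the gene ends, where 5 were called, calls in place of covered bp gave 1, the covariate 1, and leaving out 1 library 2 (day 0 KMS11 replicate 2, or KMS34 DMSO day 4 replicate 2) to 10 (day 0 KMS11 replicate 1). It gave 3 without KMS11 DMSO day 4 replicate 2, KMS34 day 0 replicate 1 or 2, or KMS34 DMSO day 10 replicate 2. Quantile normalization gave 9 lower and 2 higher in the body and 5 kb and 6 lower and 0 higher at the ends. The cause was not tested. Calls in place of covered bp could not differ at members with a peak in all 22 libraries. These were 39 of 43 in the body and 5 kb and 37 of 43 at the ends, so the counts of that setting were largely fixed in advance.

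With a replicate block the line comparison gave 11 and 5 members, the 5 all lower, so PSMD14 was lost at the ends, and the other comparisons 0. At the ends it added PSMC3. Deviations of same-numbered libraries correlated at -0.21 to 0.32 between groups of a line. Between treatment and control they were over 0.1 in both measures in 3 of 5 pairs (TKO and day 0, KMS11 at day 10, KMS34 at day 4) and not in the other two, so the numbers were not taken as pairing the libraries. At day 10 KMS11 replicate 1 covered 17.9 Mb in DMSO and 18.0 Mb in NSD2LDD, and replicate 2 26.7 and 27.1 Mb. The fit within 1 line cannot give a comparison between lines.

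Differences that changed sign were PSMC1 in KMS11 (-0.28, equal lengths), PSMB3 in KMS11 (-0.020 with 50 kb, -0.26 in the body alone, -0.079 with 500 bp at the ends), PSMA6 in KMS34 (-0.046, 50 kb), PSMB3 between lines' NSD2LDD effects (0.16 in the body alone, 0.022 with 500 bp), PSMC1 for that difference at the ends (-0.084, equal lengths), PSME1 (0.031, body alone) and PSME4 (0.18, 50 kb) between lines, and PSME3 (-0.27) in the NSD2LDD libraries. Without scaling PSMB4, PSMA4 and PSMA8 stayed lower in the body and 5 kb (-0.66, -0.46 and -0.41) but were not called, and the median of all genes in TKO moved to 0.11. The NSD2LDD libraries and the windows at starts were chosen after seeing the data. Depth is unknown and limits every 0.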
